A study of Mus musculus with 4 samples.

Results

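The account covers 10 genes of lipid droplets, lipolysis and PPAR signalling in ILC2, the group 2 innate lymphoid cells, which are lymphocytes without antigen receptors that live in tissues and make type 2 cytokines. The genes were chosen by symbol, and all 10 of 10 had a row among the 15835 genes of the count table. They are Plin2, Pnpla2, Lipe, Dgat1, Dgat2, Fabp5, Cd36, Pparg, Ppard and Ucp2. The ILC2 came from the islets of Langerhans of C57BL/6j mice, of which one group had been fasted and the other fed. Each group held 4 libraries, numbered 1, 3, 4 and 5 as in the column names, and the columns named control were taken as fed. RNA was sequenced with CEL-seq2, a method that reads the 3' end of each transcript and carries a barcode for each library. The length of the fast, the age of the mice and whether a library came from 1 mouse or from a pool are not stated in the labels. The p-values therefore describe variation among 8 libraries, and part of that variation may be technical.

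Lipid droplets store fatty acids as triglyceride inside cells, under a coat of perilipins. Fatty acids enter the cell through carriers such as CD36, are escorted by binding proteins, and are esterified in a last step by the DGAT enzymes. Lipolysis releases them again, first through the lipase ATGL, the product of Pnpla2, and then through hormone-sensitive lipase, the product of Lipe. PPARs are nuclear receptors that bind fatty acids and switch on genes of lipid storage and oxidation, Plin2 among them. In ILC2, fatty acid uptake and PPAR gamma are known from mouse studies to support type 2 cytokine production.

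The 250 bases before the start site are printed for the member that separated the groups (Plin2) and for the lipase gene Pnpla2. They are from RefSeq (GRCm38.p6, the build called mm10). PPAR elements outside these 250 bases were not searched. The Plin2 window is chr4:86670060-86670309 on the minus strand and the Pnpla2 window is chr7:141454938-141455187 on the plus strand. Capitals mark AGGTCA, the core hexamer of PPAR elements, read on either strand.
Plin2: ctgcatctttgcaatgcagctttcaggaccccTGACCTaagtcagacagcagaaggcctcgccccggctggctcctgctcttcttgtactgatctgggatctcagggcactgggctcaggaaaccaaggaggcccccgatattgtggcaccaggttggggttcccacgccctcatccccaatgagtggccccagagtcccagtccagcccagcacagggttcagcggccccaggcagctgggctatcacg
Pnpla2: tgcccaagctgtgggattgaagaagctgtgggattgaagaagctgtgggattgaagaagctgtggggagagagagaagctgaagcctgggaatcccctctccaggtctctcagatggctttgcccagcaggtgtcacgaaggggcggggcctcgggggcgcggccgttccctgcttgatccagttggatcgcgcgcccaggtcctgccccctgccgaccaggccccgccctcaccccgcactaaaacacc
The Plin2 window held 1 core hexamer, as its reverse complement, and the Pnpla2 window held 0. RefSeq promoters were matched for 7 of the 10 members, with 10 windows in all, of which 4 held AGGTCA: 1 each at Plin2 and Cd36 and 2 of the windows at Pparg. Of all 32851 windows of this length, 14% held it. The full element, with 2 copies of AGGTCA in one direction and 1 base of any kind between them, was also searched on both strands, and every match of it holds the core hexamer too. It was in 0 windows of members and in 0.0335% of all windows. A match describes letters only.

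Library totals ran from 2041697 to 9366807 counts in fasted and from 1797504 to 25252366 in fed libraries. Of 12 ILC2 markers, 11 were plainly counted in both groups, with summed levels of 1411 to 5977 CPM (counts scaled by library size, here of library totals) in fasted and 1096 to 4027 in fed libraries, while the ILC2 regulator Rora had 1 count in all fasted and 5 in all fed libraries. The libraries also held RNA of acinar cells, the enzyme-secreting cells around the islets. Listed acinar markers took 2.97% and 3.29% of counts in fasted libraries 1 and 3, 68.0% and 69.3% in fasted libraries 4 and 5, and 42.0% to 72.8% in fed libraries. Fasted libraries 1 and 3 therefore stand apart, and results that lean on them are also given without them. As sums of CPM of library totals, B cell markers (4 of 5 in the table) ran from 4.34 to 7.35 in fasted and from 0.854 to 3.34 in fed libraries without overlap. T cell markers (5 of 8) ran from 45.2 to 170 in fasted and from 21.7 to 55.6 in fed libraries. The highest T cell sums, 170 and 132, were those of fasted libraries 1 and 3, while fasted libraries 4 and 5 stood at 51.7 and 45.2. Most of these counts were of Cd3g, with 965 in fasted and 855 in fed libraries. Lef1 had 419 and 210 counts, Cd3e 118 and 32, Cd3d 11 and 9, and Cd8a 0 and 11. Islet endocrine markers (7 of 11) ran from 2.94 to 51.0 in fasted and from 40.3 to 90.1 in fed libraries. Most of these counts were of Ttr, with 622 in fasted and 2818 in fed libraries, and 0 in fasted libraries 1 and 3. The insulin genes went the other way: Ins1 had 51 counts in fasted and 5 in fed libraries, and Ins2 80 and 21. Fasted library 3 held 51 of Ins1 and 73 of Ins2, and the other endocrine markers had at most 4 counts in either group. Ductal and stromal markers (8 of 8) ran from 6.09 to 143 in fasted and from 15.6 to 73.5 in fed libraries. The part of these cells in the results below was not tested. Levels below are CPM over library sizes scaled by TMM, which corrects for composition. Because bulk RNA was counted, fewer cells of a type and less RNA per cell cannot be told apart.

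Of 7700 genes that passed the filter on low counts, 0 had an adjusted p under 0.05 between fasted and fed libraries by edgeR's quasi-likelihood test with Benjamini-Hochberg adjustment (0% of genes tested), and 338 had an unadjusted p under 0.05 (4.39%). That second count was 535 with same-number libraries paired in a block and 561 without fasted library 4. Among the members 9 of 10 passed the filter, Cd36 being too low, and 0 of these 9 passed the test. Of the 9, 6 had a positive and 3 a negative log2 fold change, with a median of 0.26 beside -0.00 over all tested genes. An unadjusted p under 0.05 was reached by 1 member higher in fasted libraries, Plin2 (2.77% of tested genes reached it higher), and by 0 lower (1.62% of tested genes). In each alternative fit run, left-out libraries included, Plin2 was again the 1 member to reach it. Of the tested members, 1 lay wholly above the fed libraries (2.21% of tested genes) and 0 lay wholly below them (1.31% of tested genes).

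**Figure D1:**
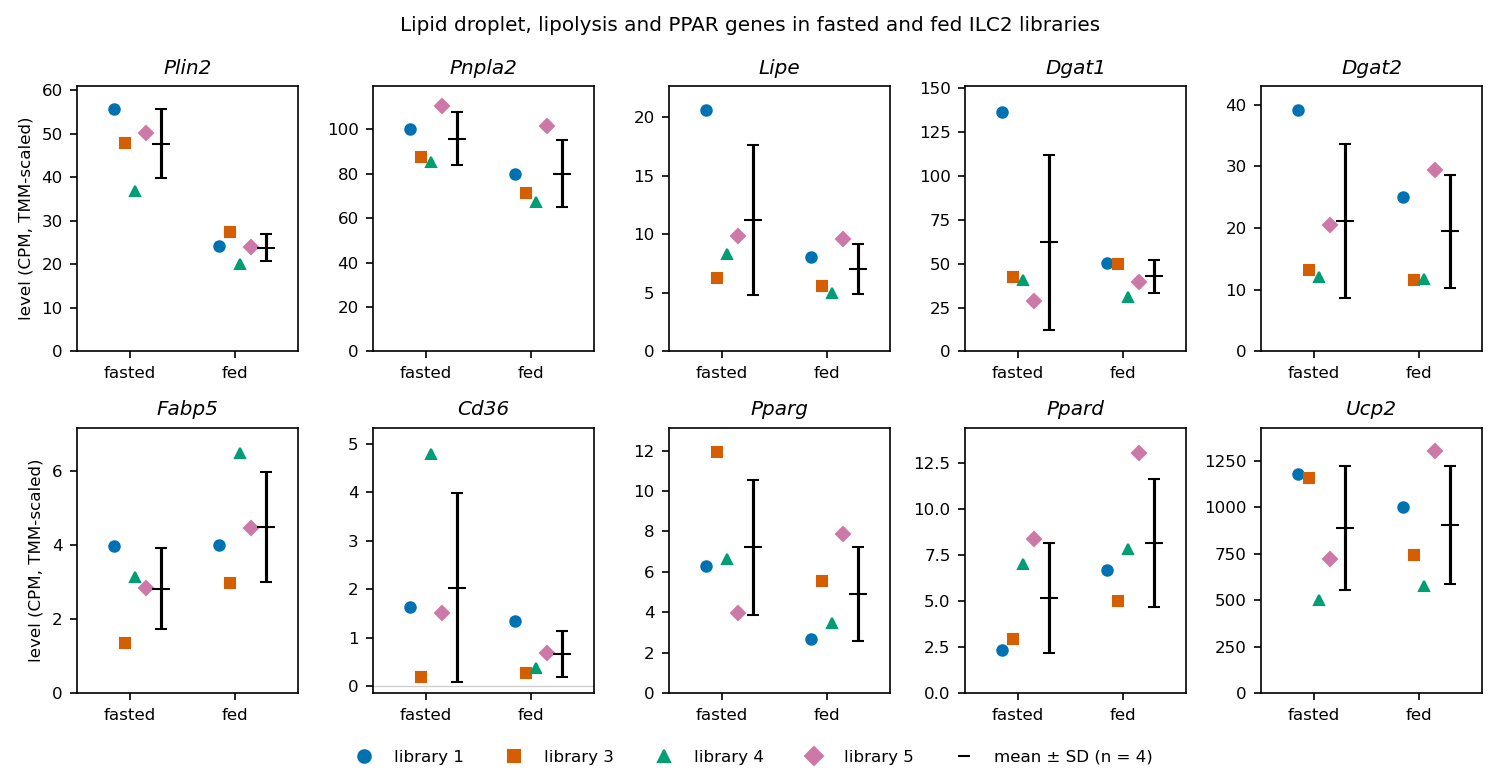
Level of each member in each library, as CPM on a linear axis, with fasted libraries on the left and fed libraries on the right of each panel; bars give the mean and SD of 4 libraries. For Plin2 the fasted libraries sit between 36.9 and 55.7 CPM, all above the fed libraries, and for the other members the groups overlap.

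Plin2 encodes perilipin 2, the coat protein found on lipid droplets in most cell types. It lies at chr4:86648386-86670060 on the minus strand (GENCODE vM21, mm10). Its level was 55.7, 47.8, 36.9 and 50.2 CPM in fasted libraries 1, 3, 4 and 5, against 24.1, 27.3, 20.0 and 24.0 CPM in fed libraries 1, 3, 4 and 5. All fasted libraries lay above all fed ones. The counts behind these levels were 238, 245, 200 and 265 in fasted and 54, 202, 270 and 70 in fed libraries. The mean was 47.6 ± 7.90 CPM in fasted and 23.8 ± 3.02 CPM in fed libraries (SD, n = 4 each), a log2 fold change of 1.00 ± 0.24 (SE; 95% interval 0.48 to 1.52), or 2.00-fold. It ranked 21 of 7700 by p but did not pass the adjustment over all genes (edgeR, unadjusted p = 0.0015, Benjamini-Hochberg adjusted p = 0.50).

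The Plin2 difference was about as large within the acinar-rich libraries. Without fasted libraries 1 and 3 the log2 fold change was 0.86 ± 0.33, and with the acinar share as a covariate it was 0.88 ± 0.28. With any 1 library left out it ran from 0.91 to 1.10. As CPM of the counts outside the acinar list, Plin2 stood at 97.8 ± 17.0 in fasted and 51.3 ± 11.3 in fed libraries, and the groups again did not overlap. Scaled by library totals alone, at 66.6 ± 46.6 CPM in fasted and 23.0 ± 11.1 CPM in fed libraries, they did overlap. That scaling moved the median log2 fold change of all genes to 0.51, and Plin2 stood at 1.54 on it.

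Of the other perilipin genes, Plin3 was tested and Plin1, Plin4 and Plin5 were not. Plin3, a perilipin that moves between cytosol and droplets, was the one other coat gene tested, at 43.9 ± 13.5 CPM in fasted and 37.9 ± 2.36 CPM in fed libraries (log2 fold change 0.21 ± 0.26). Plin4 had 12 counts in fasted and 3 in fed libraries, and Plin5 5 and 0. Plin1, the perilipin of adipocytes, had 0 counts in all 8 libraries, and the fat-cell hormone gene Adipoq had 42 counts in fasted and 16 in fed libraries. Of the other adipocyte markers, Retn had 48 counts in fasted and 39 in fed libraries, Cfd 72 and 66, and Car3 74 and 71. Fabp4 had 191 and 345, Cidec 9 and 25, Adrb3 4 and 10, and Lep 0 and 6. The 9 adipocyte markers, 3 of which (Plin1, Cidec and Fabp4) are on the pathway lists too, summed to 11.2 to 50.9 CPM of library totals in fasted and 6.20 to 17.1 CPM in fed libraries. Fasted libraries 1 and 3 stood at 50.9 and 35.3 CPM on that scale, and fasted libraries 4 and 5 at 18.0 and 11.2 CPM. The part of adipocytes in the Plin2 difference was not tested.

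Pnpla2 encodes ATGL, the lipase of the first step of triglyceride breakdown, at chr7:141455198-141460743. Its level was 100, 87.6, 85.2 and 111 CPM in fasted libraries 1, 3, 4 and 5, against 79.9, 71.4, 67.4 and 101 CPM in fed libraries 1, 3, 4 and 5. The ranges overlap through fed library 5, yet each fasted library was above the fed library of its number, as for 9.38% of tested genes. Means were 95.9 ± 11.8 CPM in fasted and 80.0 ± 15.2 CPM in fed libraries, a log2 fold change of 0.26 ± 0.21 (95% interval -0.21 to 0.73; edgeR, Benjamini-Hochberg adjusted p = 1.00). On this TMM scale the interval excludes a doubling and a halving. Scaled by library totals alone the log2 fold change was 0.78 ± 0.72, which does not exclude a doubling. ATGL is switched on by Abhd5 and held back by the products of G0s2 and Hilpda. Abhd5 stood at 8.84 CPM in both groups (log2 fold change -0.04 ± 0.50), and G0s2 had 1 count in fasted and 8 in fed libraries.

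Hilpda encodes a small droplet protein induced by hypoxia and fatty acids. It was higher in the fasted library of each number, as for 9.38% of tested genes. Its level was 858, 470, 264 and 319 CPM in fasted libraries 1, 3, 4 and 5, against 162, 188, 128 and 275 CPM in fed libraries 1, 3, 4 and 5. The groups overlap, since fed library 5 lay above fasted library 4. Hilpda had a log2 fold change of 1.34 ± 0.38 (edgeR, unadjusted p = 0.0047, Benjamini-Hochberg adjusted p = 0.73). The highest values were in the acinar-poor fasted libraries, and without those it was 0.62 ± 0.35; their part in the difference was not tested further.

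Lipe encodes hormone-sensitive lipase, at chr7:25379527-25398710 on the minus strand, where the whole gene overlaps the antisense gene 4732471J01Rik. Whether the counting used strand is not stated, so reads of these genes may not be separable. Its level was 20.6, 6.24, 8.30 and 9.86 CPM in fasted libraries 1, 3, 4 and 5, against 8.03, 5.55, 4.95 and 9.59 CPM in fed libraries 1, 3, 4 and 5. Fasted library 1 stood far above the rest, and the other fasted libraries lay within or near the fed range. For Lipe the log2 fold change was 0.70 ± 0.45 (95% interval -0.30 to 1.69; edgeR, Benjamini-Hochberg adjusted p = 1.00), and 0.23 without fasted library 1.

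Mgll, the lipase that finishes the breakdown of monoglyceride, stood at 14.8 CPM in fasted and 13.9 CPM in fed libraries. Lipa, the acid lipase of lysosomes, had a log2 fold change of -0.15 ± 0.51, and Abhd6, a monoglyceride hydrolase, one of 0.30 ± 0.38. In this lipolysis list, 5 of 8 genes in the table were tested, 3 were positive, and 0 had an unadjusted p under 0.05 (4.39% of all tested genes).

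Dgat1 and Dgat2 encode the unrelated enzymes that join the last fatty acid to make triglyceride. Dgat1 lies at chr15:76502015-76511953 on the minus strand and Dgat2 at chr7:99153658-99182719 on the minus strand. Dgat1 was at 136, 42.3, 40.9 and 28.8 CPM in fasted libraries 1, 3, 4 and 5, against 50.4, 49.7, 31.0 and 39.7 CPM in fed libraries 1, 3, 4 and 5. Only fasted library 1 exceeded the fed range, with 583 counts, and fasted library 5 was the lowest of all 8. Dgat1 had a log2 fold change of 0.54 ± 0.45 (95% interval -0.45 to 1.54; edgeR, Benjamini-Hochberg adjusted p = 1.00). It turned to -0.19 without fasted library 1 and to -0.29 ± 0.36 without fasted libraries 1 and 3.

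Dgat2 was at 39.1, 13.3, 12.0 and 20.5 CPM in fasted libraries 1, 3, 4 and 5, against 25.0, 11.6, 11.7 and 29.5 CPM in fed libraries 1, 3, 4 and 5. The groups overlap across their ranges, and again fasted library 1 was the highest. For Dgat2 the log2 fold change was 0.14 ± 0.46 (95% interval -0.86 to 1.15; edgeR, Benjamini-Hochberg adjusted p = 1.00), and -0.34 without fasted library 1. Myeloid markers summed to 129 CPM of library totals in that library, against 3.06 to 18.1 CPM in the other fasted and 1.39 to 16.1 CPM in fed libraries. Most of this was the complement gene C1qb, with 161 counts in fasted library 1, and the macrophage receptor Csf1r, with 50, while Lyz2 had 0 there. Their part in the high Dgat1, Dgat2 and Lipe values of fasted library 1 was not tested.

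The earlier enzymes of glycerolipid and sterol ester synthesis were mixed in sign. Of 9 tested, 3 were positive and 6 negative, with a median of -0.14, and 0 had an unadjusted p under 0.05 (4.39% of all tested genes). Agpat2, which adds the second fatty acid to the glycerol backbone, was at 37.2 ± 9.20 CPM in fasted and 51.4 ± 22.2 CPM in fed libraries (log2 fold change -0.46 ± 0.32). Fed library 5 was the highest, at 82.9 CPM, and without it the log2 fold change was -0.14 ± 0.28. Agpat6, an acyltransferase of the first step, had -0.19 ± 0.36.

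**Figure D2:**
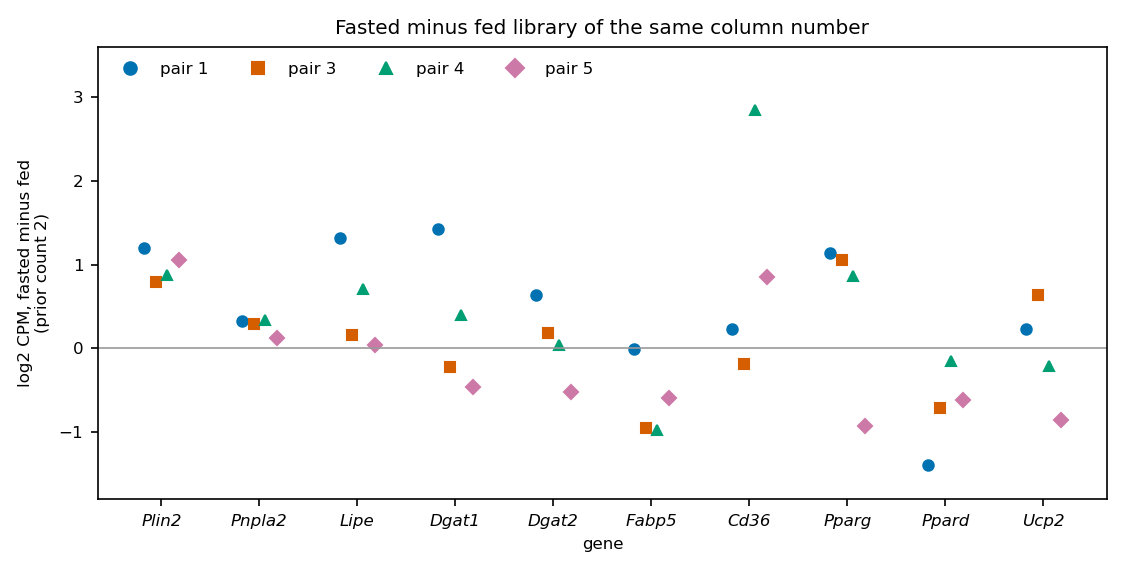
Difference in log2 CPM (prior count 2) between the fasted and the fed library of the same number, for each member; points above 0 are higher in the fasted library. Plin2, Pnpla2 and Lipe are above 0 in all 4 pairs, as for 9.38% of tested genes. Fabp5 and Ppard are below 0 in all 4, as for 8.31%. Lipe in pair 5 is at 0.038 and Fabp5 in pair 1 at -0.013, and Cd36 rests on few counts.

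Fabp5 encodes a cytosolic fatty acid binding protein that hands ligands to PPAR delta, at chr3:10012548-10016607. Its counts were low, at 17, 7, 17 and 15 in fasted and 9, 22, 88 and 13 in fed libraries 1, 3, 4 and 5, and reads may be split with processed copies of the gene elsewhere in the genome, which was not measured. Levels were 3.98, 1.37, 3.13 and 2.84 CPM in fasted libraries 1, 3, 4 and 5, against 4.01, 2.98, 6.50 and 4.45 CPM in fed libraries 1, 3, 4 and 5. The fasted library of each number was the lower one, as for 8.31% of tested genes, by almost nothing in pair 1. Fabp5 had a log2 fold change of -0.68 ± 0.52 (95% interval -1.82 to 0.46; edgeR, Benjamini-Hochberg adjusted p = 1.00), and -0.42 without fed library 4. Scaled by library totals alone it was -0.08.

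Cd36 encodes the fatty acid carrier of the cell surface, at chr5:17781690-17888801 on the minus strand. It had 7, 1, 26 and 8 counts in fasted libraries 1, 3, 4 and 5, against 3, 2, 5 and 2 counts in fed libraries 1, 3, 4 and 5. Its levels were 1.64, 0.195, 4.79 and 1.52 CPM in fasted libraries, against 1.34, 0.271, 0.369 and 0.685 CPM in fed libraries. At 3 counts, the floor set here, a fasted library would read 0.553 to 0.702 CPM and a fed one 0.222 to 1.34 CPM, so only 3 fasted libraries and fed library 4 were above it. The groups overlap, and fasted library 4 held most of the fasted counts. With no filter on low counts the log2 fold change was 1.71 ± 1.23 (edgeR, unadjusted p = 0.18). Endothelial cells carry CD36 as well: their 8 markers summed to 1.47 to 32.6 CPM of library totals in fasted and 0.556 to 42.6 CPM in fed libraries, and their part was not tested.

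Among other genes of fatty acid handling, Dbi, which encodes the acyl-CoA binding protein, was at 37.2, 38.6, 57.3 and 33.4 CPM in fasted libraries 1, 3, 4 and 5, against 47.7, 60.5, 80.3 and 61.7 CPM in fed libraries 1, 3, 4 and 5. Each fasted library was below the fed one of its number, as for 8.31% of tested genes, while the groups overlap through fasted library 4. For Dbi the log2 fold change was -0.59 ± 0.26 (edgeR, unadjusted p = 0.042, Benjamini-Hochberg adjusted p = 1.00). With the acinar covariate it was -0.46 ± 0.31, without fasted libraries 1 and 3 -0.46 ± 0.35, and with library totals alone -0.05 ± 0.72. With 1 library left out it ran from -0.79 to -0.45. The transporter gene Slc27a1 had a log2 fold change of 1.45 ± 1.17 that rested on fasted libraries 4 and 5, with 14.7 and 16.9 CPM, beside 0 and 0.781 CPM in fasted libraries 1 and 3 and 1.49 to 6.17 CPM in fed libraries. Without fasted libraries 1 and 3 its log2 fold change was 2.41 ± 0.61 (edgeR, unadjusted p = 0.0025, Benjamini-Hochberg adjusted p = 1.00), and with the acinar covariate it was 2.17 ± 0.65. With the replicate block it was 0.55 ± 1.00, and with limma-voom 0.24 ± 1.22. The range of adjusted p for Slc27a1 over the alternatives that leave out no single library was 0.76 to 1.00. Fabp4, the binding protein of fat and endothelial cells, was at 9.34 CPM in fasted and 7.91 CPM in fed libraries.

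Pparg encodes PPAR gamma, the receptor of fat storage that ILC2 also carry, at chr6:115360951-115490399. A gene annotated as its antisense, Gm44079, overlaps it. Its counts were 27, 61, 36 and 21 in fasted and 6, 41, 47 and 23 in fed libraries 1, 3, 4 and 5. Levels were 6.32, 11.9, 6.64 and 3.98 CPM in fasted libraries 1, 3, 4 and 5, against 2.68, 5.55, 3.47 and 7.88 CPM in fed libraries 1, 3, 4 and 5. The fasted library was higher in pairs 1, 3 and 4 and lower in pair 5, and the groups overlap. Pparg had a log2 fold change of 0.56 ± 0.50 (95% interval -0.53 to 1.65; edgeR, Benjamini-Hochberg adjusted p = 1.00). It was 0.20 without fasted library 3 and 0.12 ± 0.64 without fasted libraries 1 and 3.

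Ppard encodes PPAR delta, a receptor of fatty acid oxidation found in most tissues, at chr17:28232700-28301474. It was at 2.34, 2.93, 7.01 and 8.34 CPM in fasted libraries 1, 3, 4 and 5, against 6.69, 5.01, 7.83 and 13.0 CPM in fed libraries 1, 3, 4 and 5. The low values were those of the 2 acinar-poor fasted libraries, while fasted libraries 4 and 5 lay inside the fed range. The log2 fold change was -0.64 ± 0.52 (95% interval -1.78 to 0.50; edgeR, Benjamini-Hochberg adjusted p = 1.00). Without the acinar-poor libraries it was -0.07 ± 0.54, and with the acinar covariate -0.13 ± 0.50. It also moved with fed library 5, the highest of all 8, to -0.33 ± 0.54 without it, and was -0.98 ± 0.57 without fasted library 5. As CPM of library totals Ppard stood at 5.08 ± 0.54 in fasted and 6.98 ± 2.19 in fed libraries. The fasted libraries were close together on that scale, although their acinar shares differed most.

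**Figure D3:**
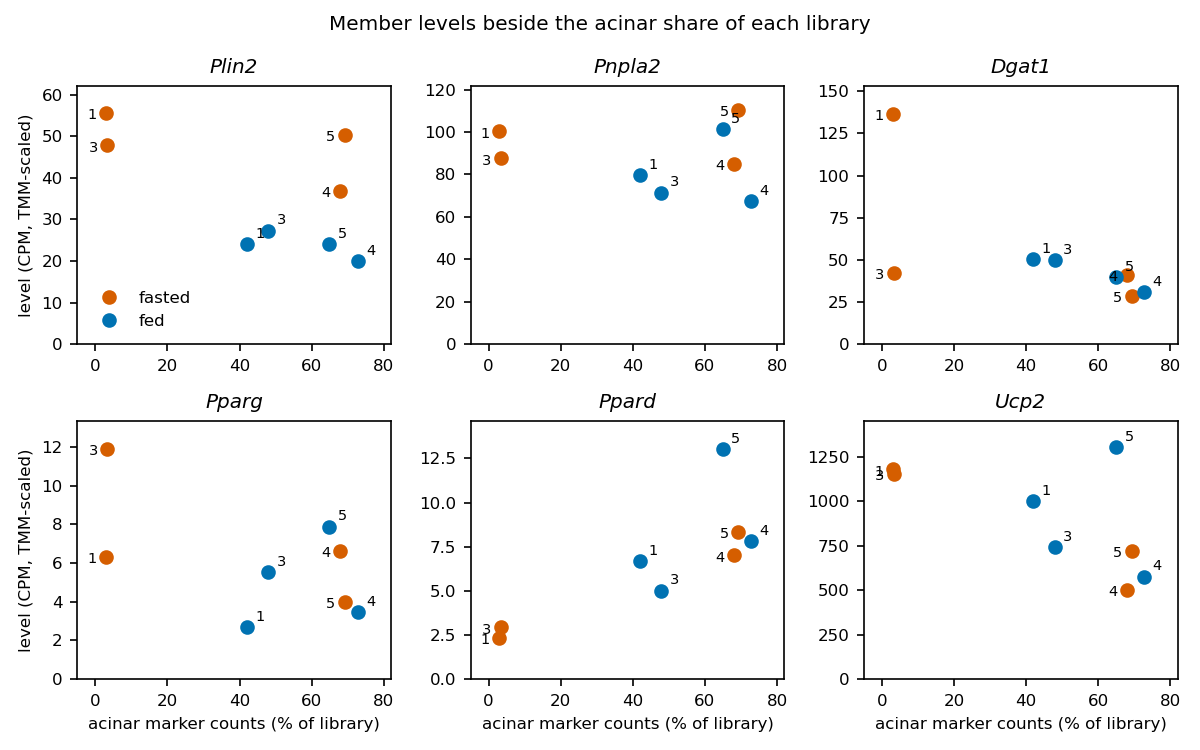
Level of 6 members (CPM over TMM-scaled library sizes) against the share of counts on acinar markers in each library; numbers beside the points are library numbers. No fed library has a share below 42.0%; among libraries above that share, Plin2 is higher in fasted libraries 4 and 5 than in the fed libraries, whereas Ppard is lowest in fasted libraries 1 and 3, at 2.34 and 2.93 CPM.

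PPARs act as pairs with the retinoid receptors RXR. Rxra, the RXR of most tissues, was at 26.0, 15.4, 16.0 and 15.7 CPM in fasted libraries 1, 3, 4 and 5, against 12.9, 9.07, 10.9 and 12.0 CPM in fed libraries 1, 3, 4 and 5. The groups did not overlap, and fasted library 1 stood above the other fasted libraries. The log2 fold change was 0.71 ± 0.30 (edgeR, unadjusted p = 0.039, Benjamini-Hochberg adjusted p = 1.00), and 0.49 without fasted library 1. Rxrb had 0.05 ± 0.33. The coactivator gene Ncoa2 was at 6.67 ± 0.32 CPM in fasted and 3.38 ± 2.45 CPM in fed libraries without overlap, where fed library 5 had 0 counts (log2 fold change 0.93 ± 0.72), and its unadjusted p was above 0.05. Its log2 fold change was 0.55 ± 0.41 without fed library 5. The corepressor gene Ncor1 had -0.40 ± 0.35. Of the 13 partners and coregulators tested, 7 were positive and 6 negative, with a median of 0.05. Ppara, the PPAR of liver, had 8 counts in fasted and 35 in fed libraries and was not tested.

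Among 20 listed PPAR targets 15 were tested, of which 12 were positive, with a median of 0.31. An unadjusted p under 0.05 was reached by 4 higher and 0 lower (26.7% of the 15, beside 2.77% of all tested genes in this direction), and 0 passed the adjustment. These were Cpt1a, Acaa2, Slc25a20 and Hadhb, all of fatty acid entry into mitochondria and its oxidation there. The target list was chosen with earlier results of these data known, so its count is no independent evidence. Cpt1a, the gate of fatty acids into mitochondria, was at 22.9, 21.5, 33.4 and 34.1 CPM in fasted libraries 1, 3, 4 and 5, against 12.9, 10.1, 10.9 and 12.0 CPM in fed libraries 1, 3, 4 and 5. The groups did not overlap, and the acinar-rich fasted libraries were the higher ones. Its log2 fold change was 1.29 ± 0.28 (edgeR, Benjamini-Hochberg adjusted p = 0.50; DESeq2, adjusted p = 0.047, the lowest of a range up to 1.00 over its alternatives). The thiolase gene Acaa2 was at 57.5 ± 7.86 CPM in fasted and 31.0 ± 7.60 CPM in fed libraries, and the carnitine carrier gene Slc25a20 at 21.5 ± 2.62 CPM in fasted and 12.7 ± 3.30 CPM in fed libraries. Hadhb, the beta subunit of the trifunctional protein, was at 40.6 ± 8.08 CPM in fasted and 25.5 ± 6.56 CPM in fed libraries with overlap.

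**Figure D4:**
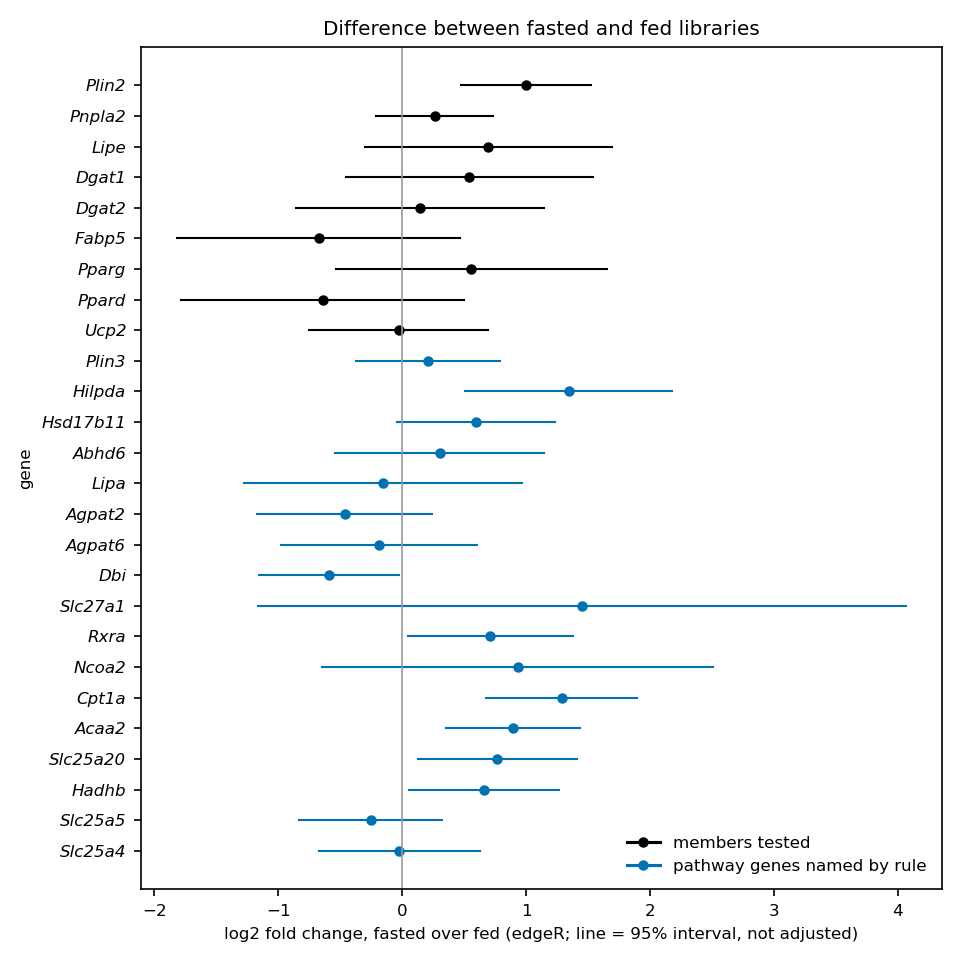
Log2 fold change of fasted over fed libraries for the tested members (black) and the pathway genes named by rule (blue), with 95% intervals that are not adjusted for the number of genes. Among the members the interval of Plin2, 0.48 to 1.52, is the one that leaves out 0.

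Ucp2 encodes a carrier of the inner mitochondrial membrane that is common in lymphocytes and is a known PPAR target. It lies at chr7:100493337-100502020, where 305 bases overlap the opposite-strand gene Dnajb13. Its counts were 5046, 5919, 2714 and 3805 in fasted and 2245, 5493, 7809 and 3811 in fed libraries 1, 3, 4 and 5. Levels were 1180, 1155, 500.3 and 721 CPM in fasted libraries 1, 3, 4 and 5, against 1001, 743, 577 and 1305 CPM in fed libraries 1, 3, 4 and 5. The groups overlap across their ranges, with the acinar-poor fasted libraries and fed library 5 at the top. Means were 889 ± 334 CPM in fasted and 907 ± 318 CPM in fed libraries, a log2 fold change of -0.03 ± 0.33 (95% interval -0.75 to 0.70; edgeR, Benjamini-Hochberg adjusted p = 1.00). That interval excludes a doubling and a halving but not smaller differences. Without fasted libraries 1 and 3 the value was -0.58 ± 0.40, and with library totals alone 0.71 ± 0.74. The carrier genes Slc25a5 and Slc25a4, which exchange ADP and ATP across the same membrane, had log2 fold changes of -0.25 ± 0.26 and -0.02 ± 0.30; reads of Slc25a5 may be split with its processed copies.

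Across all 101 listed pathway genes outside the members, 90 were in the table and 60 were tested, with 36 positive, 24 negative and a median of 0.11. Unadjusted p under 0.05 was reached by 6 higher, namely Hilpda, Rxra, Cpt1a, Acaa2, Slc25a20 and Hadhb, and by 1 lower, Dbi (11.7% of the 60, beside 4.39% of all tested genes), and 0 passed the adjustment. The count of 7 became 4 without fasted library 5 and 3 with library totals alone. All lists were chosen with earlier results of these data known, so this count is no independent evidence. In the droplet formation list 5 of 7 were positive, with a median of 0.23. There Hsd17b11, a droplet-bound dehydrogenase, was at 20.2 ± 3.84 CPM in fasted and 13.3 ± 2.81 CPM in fed libraries without overlap (log2 fold change 0.60 ± 0.29), and the seipin gene Bscl2 had 0.23 ± 0.31.

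**Figure D5:**
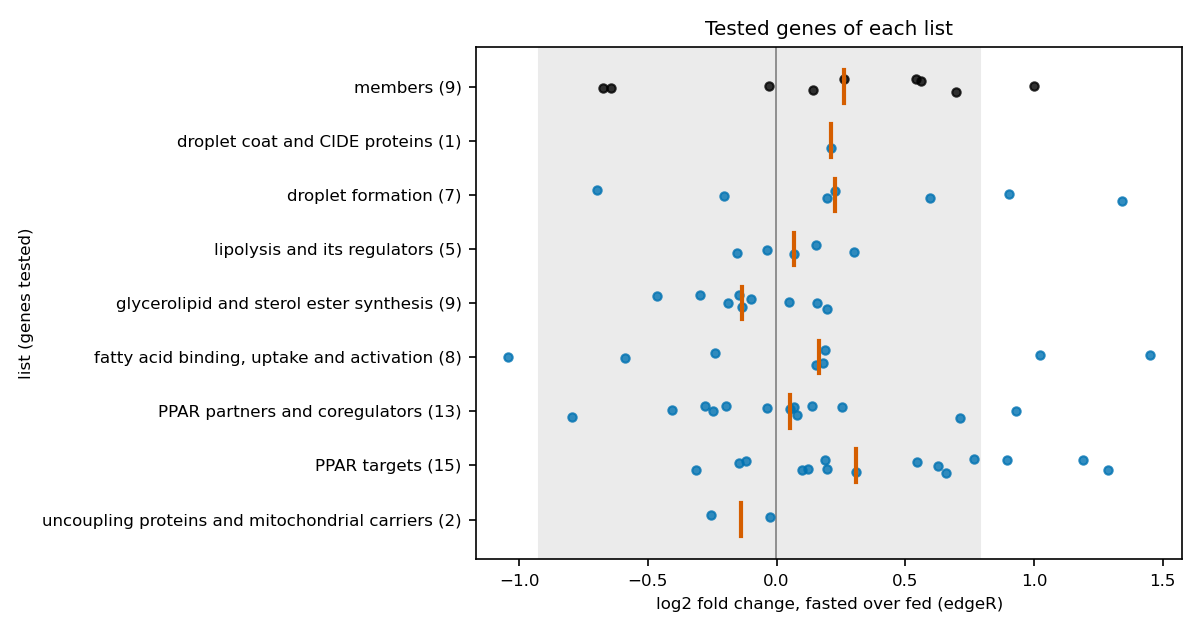
Log2 fold change of each tested gene, grouped by list, with orange bars at list medians; the grey band runs from -0.92 to 0.79, the central 90% of all 7700 tested genes. The members spread from -0.68 to 1.00, and the PPAR targets have the highest list median, 0.31.

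The members differed in how near their profiles were to that of Plin2. Likeness to Plin2 was measured as the mean absolute difference of log2 CPM over the 8 libraries, each gene centred on its own mean. The nearest genes of all were Gigyf1, Flot1, Padi2, Plekhg3 and Rab4a, at 0.12 to 0.17, and each was higher in the fasted library of all 4 pairs, which follows from their being chosen for likeness to Plin2. Rab4a, a small GTPase of endosome recycling, was at 81.0 ± 12.6 CPM in fasted and 40.7 ± 7.07 CPM in fed libraries, and Flot1, which encodes the membrane raft protein flotillin 1, at 36.8 ± 8.62 CPM in fasted and 19.9 ± 2.95 CPM in fed libraries. Of the members the nearest were Pnpla2, at 0.36 (rank 508 of 7700, with Plin2 itself as 1), and Lipe, at 0.42 (rank 988). Pparg and Ucp2 were both at 0.51, Dgat1 at 0.55 and Dgat2 at 0.62, and the farthest were Fabp5, at 0.81, and Ppard, at 0.87 (rank 5790).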

How the data were processed

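RNA of islet ILC2 was measured in fasted and fed mice. Trizol extraction and CEL-seq2 library preparation were used, per the labels' protocols. Per the submitters' processing notes STAR, edgeR and mm10 were used, without versions. The authors deposited raw counts as whole numbers for each gene, and the sources used here do not say if these are of reads or of unique molecules. The 4 sequencing files hold libraries of both treatments, so treatment was read from the column names; 2 further columns of the table were not used here. The 11 ERCC spike-in rows (20 counts) were left out.

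The test was that of edgeR 4.0.16 (R 4.3.3), its robust quasi-likelihood test with no covariates, after filterByExpr by group and TMM scaling. Two-sided p-values were adjusted by Benjamini-Hochberg over all 7700 tested genes, with a threshold of 0.05. SE is the log2 fold change divided by the square root of F. Libraries of one group all differed by more than counting noise, with a chi-square for each pair of at least 13.6 per gene. Over tested genes, deviations from the group means of same-number libraries correlated at 0.23, 0.14, 0.50 and 0.13. Unlike numbers ran from -0.40 to 0.22, and the top values, 0.22 and 0.20, were above the same-number values of 0.14 and 0.13. The column numbers were taken to pair libraries from the names, and these values do not settle whether they do. The main test used no pairing.

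Named genes are the members, the 2 of each pathway list with the smallest p (more where p was under 0.05) and the 5 nearest to Plin2; the others named were chosen after their values were seen. Members and lists were chosen with earlier results of these data known. Alternatives were other scaling and filters, DESeq2 1.42.0, limma-voom (limma 3.58.1), the replicate block, removal of acinar genes, an acinar covariate and left-out libraries. The tests were also run on simulated counts, with means taken from these data and dispersions from the main fit. Coordinates are from GENCODE vM21 (mm10), matched by symbol and chromosome. Some genes of the lists are not reported here.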

Additional observations from a re-analysis of the deposited data

Results flagged for a closer look

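In fasted libraries, Dgat1 had 1 library far from the others: fasted library 1 was at 136 CPM, and the next highest, fasted library 3, at 42.3 CPM. Rxra did too, with 26.0 CPM in fasted library 1 and 16.0 CPM in the next highest, fasted library 4. The gap to the nearest library, divided by the whole range of the 4 fasted libraries, was 0.874 for Dgat1 and 0.941 for Rxra, both above Dixon's 95% limit. Members and named pathway genes gave 54 groups of 4 libraries, of which these 2 were singled out; chance alone singles out about 5% of groups.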

How the results depend on the processing

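Over all genes, 1 gene was called with library totals alone and 1 with no filter on low counts, neither a member, and DESeq2 called 17. Of the listed pathway genes DESeq2 called 1, Cpt1a. Member calls were 0 in every alternative. Unadjusted p under 0.05 was reached by 919 genes with no filter and 535 with the replicate block of paired numbers, and by 248 to 561 with a library left out; for pathway genes it was 3 with library totals alone and 4 to 7 with a library left out. The block changed no call of a member. Calls with a library left out stayed at 0 for all genes, members and pathway genes. Signs turned as follows. With library totals alone, which moved the median of all genes to 0.51, Ucp2 was at 0.71, Lipa 0.40, Agpat2 0.018, Agpat6 0.41, Slc25a5 0.12 and Slc25a4 0.47. With limma-voom Agpat6 was at 0.058 and Slc25a4 at 0.088. With the acinar covariate Dgat1 was at -0.21, Dgat2 -0.20 and Slc25a5 0.029, and without both acinar-poor fasted libraries Dgat1 was at -0.29, Dgat2 -0.25 and Slc25a5 0.055. With 1 library left out Dgat1 ran from -0.19 to 0.78, Dgat2 from -0.34 to 0.42, Ucp2 from -0.20 to 0.20, Abhd6 from -0.089 to 0.47, Lipa from -0.54 to 0.14, Agpat6 from -0.44 to 0.10 and Slc25a4 from -0.16 to 0.15. Without a change of sign, Pnpla2 ran from 0.18 to 0.40, Pparg from 0.20 to 0.86, Plin3 from 0.045 to 0.36, Slc25a5 from -0.51 to -0.11 and Ncoa2 from 0.55 to 1.36. The cause was not tested. Plin2 ran from 0.86 to 1.54, with adjusted p from 0.078 (DESeq2) to 1.00, in the other alternatives. Depth limits Cd36 (54 counts in all), Fabp5, Ppard and Pparg most.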

Other observations

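Some PPAR targets were too unevenly counted to be tested, and these were picked after their values were seen. Acot1, a thioesterase of the cytosol, had 27 and 14 counts in fasted libraries 4 and 5, against 0 in fasted libraries 1 and 3 and 3 in all fed libraries. Pdk4, a kinase that restrains glucose oxidation, had 25 and 13 counts in fasted libraries 4 and 5, against 2 and 0 in fasted libraries 1 and 3 and 10 in all fed libraries. The high values of both genes were those of the 2 acinar-rich fasted libraries. For both, the acinar-poor fasted libraries lay within or below the fed range, unlike Cpt1a and Plin2.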
